A study of Mus musculus with 117 samples.

Results

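Lipocalins are small secreted proteins that fold into a barrel with a pocket for fatty acids, odorants, retinol, steroids or iron-binding siderophores. The 10 lipocalin genes followed here were Obp1a and Gm14743 (odorant-binding proteins), Lcn2, Lcn3, Lcn4, Mup1 and Mup4 (major urinary proteins), Apod, Rbp4 and Ptgds, and their members are the probe sets annotated to 1 of these symbols alone. Of the 10 symbols, 8 had such a probe set, 14 probe sets in all, of 36701 probe sets and 15964 named genes on the arrays. Mup1 and Mup4 had none and were not analysed here. The genes were chosen on their signals in these same samples, above all on the levels of Obp1a by gland and age, so the levels of Obp1a and Gm14743 in submandibular and lacrimal gland are given as a description, with no test.

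Array signals came from exocrine glands of female mice. One strain was NOD.CB17-Prkdc scid/J, called NOD-scid here, and the other B6.CB17-Prkdc scid/SzJ, called B6-scid. Both carry the Prkdc scid mutation and so lack mature T and B cells. NOD mice are prone to autoimmune disease of pancreas, salivary and lacrimal glands, and the scid strains allow the glands to be compared without mature T and B cells. Each strain gave 5 pancreas samples at 6 weeks of age, 5 submandibular samples at 9 weeks and 5 more at 15 weeks. Lacrimal glands were taken at 15 weeks, 5 from B6-scid and 4 from NOD-scid. Age was compared in the submandibular gland only. All 39 samples had an array of each of the 3 Affymetrix MG-U74 version 2 designs, called A, B and C. Values below are scaled signals, which are array intensities brought to a trimmed mean of 500 on each array, and a signal under 100 is called low.

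Odorant-binding proteins carry small volatile molecules through mucus and are known from the nasal glands, while rodents also make them in lacrimal and salivary glands. Major urinary proteins bind and slowly release pheromones and are made in liver, salivary and lacrimal glands. Lcn2 withholds iron from bacteria by binding siderophores and is induced in inflammation, Apod binds arachidonic acid and progesterone, Rbp4 carries retinol in blood, and Ptgds makes prostaglandin D2 and also serves as a lipid carrier in body fluids. Lcn3 and Lcn4 are the vomeronasal secretory proteins of the nose.

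Some samples stood apart from their group, and the results that rest on them are given with and without them. B6-scid lacrimal samples 2 and 3 held transcripts of parotid saliva: the salivary amylase Amy1 read 185011 and 181639 there and at most 111 in the other B6-scid lacrimal samples, and Bpifa2 (parotid secretory protein) read 160308 and 268249 against at most 395. Over 7 parotid and sublingual genes their summed signals were 579401 and 687040, against 59838 to 60974 in the other 3 B6-scid and 96758 to 112637 in the NOD-scid lacrimal samples. Over 16 submandibular secretory genes the sums were 335433 and 287413 in those samples against 54585 to 61924, and NOD-scid lacrimal sample 4 had 126991 against 7374 to 7819. The summed acinar signal was 1852457 to 2437018 in pancreas, and the summed submandibular secretory signal was 477432 to 1288783 in submandibular gland. The sum over 12 lacrimal secretory genes did not mark the lacrimal gland, at 225155 to 477504 there against 209845 to 790920 in submandibular gland. NOD-scid submandibular sample 1 of 9 weeks held pancreatic enzyme transcripts, with a summed signal over 12 acinar genes of 207646 against 12392 to 25794 in the other 4 samples. In bulk glands, fewer cells of a type and less RNA per cell cannot be told apart.

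Obp1a and Gm14743 lie in 1 stretch of the X chromosome, and the annotated start of a further odorant-binding gene, Obp1b, lies between theirs. Their upstream sequences are shown because the readings of both varied together from mouse to mouse. The 250 bases before each annotated start, from RefSeq on GRCm38.p6, are those at chrX:78091375-78091624 (minus strand) for Obp1a and chrX:78245922-78246171 (minus strand) for Gm14743. Capitals mark a TATA box and, upstream of it, a CCAAT box, which stands on the other strand and so is read here as its reverse complement:
Obp1a: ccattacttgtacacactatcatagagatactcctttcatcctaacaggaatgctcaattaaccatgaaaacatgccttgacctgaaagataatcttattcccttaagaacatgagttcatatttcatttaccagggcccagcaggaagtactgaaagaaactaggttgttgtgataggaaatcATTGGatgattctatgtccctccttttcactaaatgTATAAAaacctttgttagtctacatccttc
Gm14743: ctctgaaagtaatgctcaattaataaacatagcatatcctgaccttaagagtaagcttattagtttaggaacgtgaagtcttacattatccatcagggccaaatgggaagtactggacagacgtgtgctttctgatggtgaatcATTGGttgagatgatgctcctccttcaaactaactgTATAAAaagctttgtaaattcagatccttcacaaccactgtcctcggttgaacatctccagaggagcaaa

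Both windows held the same pair of motifs in the same order, with 31 bases between them. The TATA box ended 25 bases before the annotated start in Obp1a and 65 bases before it in Gm14743. The 2 windows aligned over 210 bases, of which 68.1% were identical. The window of Obp1b was identical to that of Gm14743 over the 241 bases that aligned. No probe set carried Obp1b alone, and whether the Gm14743 probe set also reads Obp1b was not tested, so its values are uncertain between these copies. Whether the probe sets of Obp1a and Gm14743 read each other's transcripts was not tested either. The TATA box was searched as TATAAA on both strands, and 12.4% of 32851 RefSeq promoter windows of this length held it. The other motif was searched as CCAAT on both strands and was held by 33.8% of windows, with 4.4% holding both. Windows where the 2 matches share a base were not left out. The promoter table covered 9 of the 10 genes.

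Obp1a was read by a probe set on array A and by one on array B that met fewer of the maker's selection rules. It was a lacrimal gland transcript above all. On array A the B6-scid lacrimal samples read 62234, 148410.5, 181012, 64458 and 71750.2, in the order of their sample numbers, and the NOD-scid lacrimal samples 80729, 98155, 85755 and 100997. All 9 lay above every submandibular and pancreatic sample. The strains overlapped, with every NOD-scid sample inside the range of the B6-scid samples.

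Lacrimal samples 2 and 3 of B6-scid, which held the parotid transcripts, had the highest Obp1a of the gland. The B6-scid mean was 105573 ± 55315 (SD, n = 5) with them and 66147 ± 4978 (n = 3) without them, and all 3 samples lay below the 4 NOD-scid samples. The strain difference in lacrimal gland (NOD-scid minus B6-scid, on the log2 scale of signal + 32) was -0.06 ± 0.34 (SE) with them and 0.46 without them. The array B probe set did not set these 2 samples apart, with 8885, 10904, 8683, 10174 and 5792 in B6-scid and 7052, 9792, 7238 and 8244 in NOD-scid. The part of the parotid transcripts in the array A readings was not tested.

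In the submandibular gland Obp1a was abundant at 9 weeks. B6-scid samples read 16249, 9857, 10574, 23539 and 24162 on array A. NOD-scid samples read 745, 11008, 12813, 30157 and 23802. The strains overlapped, and 9 of the 10 samples lay between 9857 and 30157. The exception was NOD-scid sample 1, the one with pancreatic enzyme transcripts, and the part of these in its low Obp1a was not tested. The NOD-scid mean was 15705 ± 11496 (SD, n = 5) with that sample and 19445 ± 9109 (n = 4) without it, against 16876 ± 6835 (n = 5) in B6-scid. The array B probe set of Obp1a did not place this sample apart.

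At 15 weeks most submandibular glands had little Obp1a. B6-scid samples read 13136, 574, 147, 141 and 409, and NOD-scid samples 14.9, 6.20, 4.50, 28.6 and 169. Sample 1 of B6-scid lay inside the range of the 9-week glands, and the other 4 lay below every 9-week gland. In NOD-scid, 4 of the 5 samples were at or below the level of pancreas, where the 10 samples read 5.08 to 35.1. The strains overlapped at 15 weeks through NOD-scid sample 5, whose 169 exceeded B6-scid samples 3 and 4. Set against the mean lacrimal signal of B6-scid, the median B6-scid submandibular gland held 15.4% at 9 weeks and 0.388% at 15 weeks, or 24.6% and 0.619% without lacrimal samples 2 and 3. In NOD-scid it held 14.0% at 9 weeks. The 15-week NOD-scid median was a low signal, which bounds its share only at under 0.109%, the share that a signal of 100 is.

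**Figure D1:**
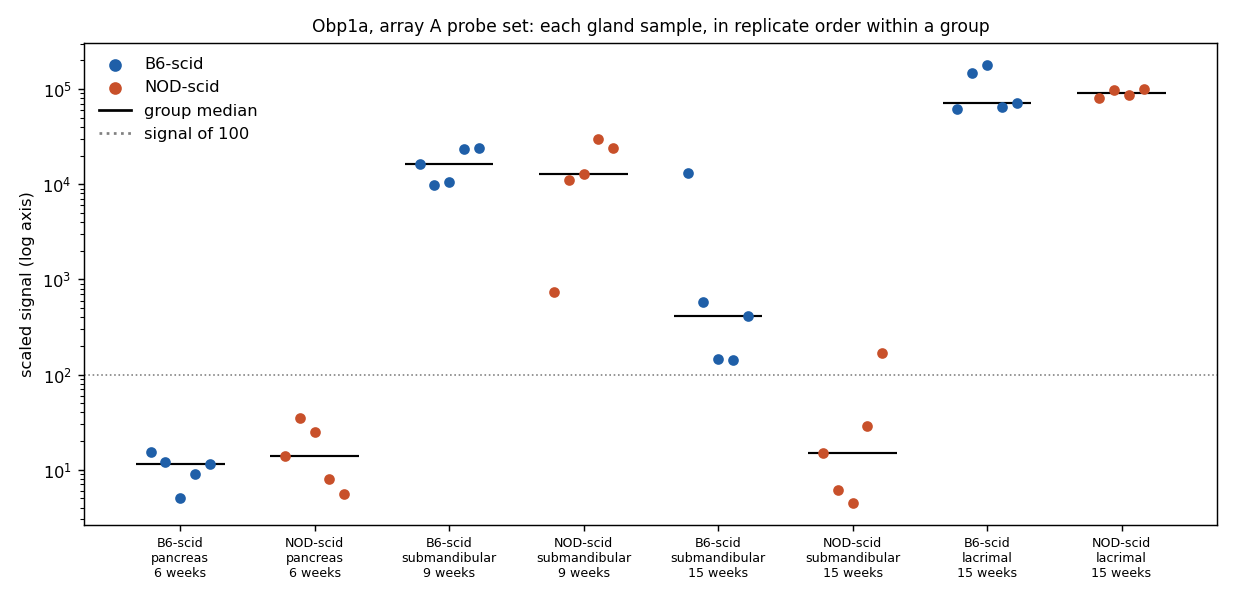
Scaled signal of the array A probe set of Obp1a in each gland sample (y axis, log scale) for the 8 groups (x axis); points are samples in order of their numbers, black lines are group medians and the dotted line is a signal of 100. The 9 lacrimal samples lie at the top, the 9-week submandibular samples next except NOD-scid sample 1 at 745, and the 15-week submandibular samples fall low except B6-scid sample 1 at 13136.

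The difference of 15 minus 9 weeks in Obp1a on array A was -4.62 ± 1.00 (log2, SE) in B6-scid and -7.31 ± 1.00 in NOD-scid. Without the 2 samples numbered 1 that stood apart it was -5.71 and -8.21. The strain difference (NOD-scid minus B6-scid) was -0.72 ± 1.00 at 9 weeks and -3.41 ± 1.00 at 15 weeks, and 0.18 and -2.32 without those samples. The sign at 9 weeks thus rested on 1 gland. Most NOD-scid readings at 15 weeks were low signals, where the added 32 limits a log2 difference.

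The array B probe set of Obp1a gave the same order of ages. At 9 weeks B6-scid glands read 354, 581, 423, 676 and 683, and NOD-scid glands 185, 150.4, 352, 667 and 392. At 15 weeks B6-scid glands read 503, 94.3, 38.4, 52.3 and 44.1, and NOD-scid glands 62.7, 63.4, 26.9, 154 and 87.7. B6-scid sample 1 was again the highest of its group by far. NOD-scid sample 1 of 9 weeks was within its group here, above sample 2. Pancreas samples read 26.4 to 258 on this probe set, so its low end carries no order among glands. Its age difference was -2.16 ± 0.48 in B6-scid and -1.71 ± 0.48 in NOD-scid.

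Gm14743, a gene of the same odorant-binding family, was read by a probe set with fewer selection rules met, and it showed the same glands high and low as Obp1a on array A. The B6-scid lacrimal samples read 49355, 134996, 137110.4, 55064 and 61491 and the NOD-scid lacrimal samples 52618, 68557, 67398 and 75639. B6-scid samples 2 and 3 were again the highest. Without them the B6-scid mean was 55303 ± 6071 (SD, n = 3) in place of 87603 ± 44443 (n = 5), against 66053 ± 9669 (n = 4) in NOD-scid, and the strain difference was 0.25 in place of -0.27 ± 0.34 (log2, SE).

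In the submandibular gland at 9 weeks Gm14743 read 2349.6, 3451, 3190.1, 7099 and 9157 in B6-scid and 559, 2519, 2999, 5639 and 4299 in NOD-scid. At 15 weeks it read 2725, 273, 140.1, 293 and 334 in B6-scid and 183, 151, 183, 235 and 302 in NOD-scid. As for Obp1a, sample 1 was the lowest of the NOD-scid glands at 9 weeks and the highest of the B6-scid glands at 15 weeks. The pancreas, at 29.4 to 210.4, overlapped the 15-week glands. The age difference was -3.33 ± 0.62 (log2, SE) in B6-scid and -3.44 ± 0.62 in NOD-scid, and -3.99 and -3.97 without these 2 samples.

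By mean signal the groups came in one order for Obp1a on array A and for Gm14743: B6-scid lacrimal, NOD-scid lacrimal, B6-scid submandibular at 9 weeks, NOD-scid at 9 weeks, B6-scid at 15 weeks, NOD-scid at 15 weeks, then NOD-scid and B6-scid pancreas. Neighbours in this order overlapped, except for NOD-scid lacrimal gland against the 9-week B6-scid submandibular gland. Without sample 1 the 15-week B6-scid glands kept their place with an Obp1a mean on array A of 318 ± 212 (SD, n = 4), in place of 2882 ± 5735 (n = 5). Without B6-scid lacrimal samples 2 and 3 the order of the strains in lacrimal gland turned for both genes, with NOD-scid the higher, and without NOD-scid sample 1 the order at 9 weeks turned for Obp1a.

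The genes whose levels were most like those of Obp1a were sought as a description, with no test, since all points share their samples and the tissue differences. Over the 39 samples and 27368 probe sets these were Gm14743 (Pearson r = 0.956 on the log2 scale), Scgb1b2 (0.8935), the ephrin receptor gene Ephb6 (0.847), the galactose mutarotase gene Galm (0.844) and Dnase1 (0.831), a secreted nuclease. Over the 20 submandibular samples and 25583 probe sets, after each group mean was subtracted, they were Gm14743 (0.927), Scgb1b2 (0.893), the muscle glycogen phosphorylase gene Pygm (0.836), Ulk2 (0.799) and Suds3 (0.798). Gm14743 and Scgb1b2 were also first and second by Spearman rank correlation in both sets, whereas Ephb6 ranked 22 and Pygm ranked 40. The part of the 2 samples numbered 1 in these correlations was not tested. Nor was it tested whether the probe sets of Obp1a and Gm14743 read each other's transcripts, so Gm14743 may not be a separate reading. Dnase1 showed the B6-scid lacrimal pattern of Obp1a, with 51595, 129414, 132484, 52380.5 and 52203, and samples 2 and 3 were again the highest. Dnase1 is itself on the list of parotid and sublingual genes. It made up most of the sum of that list in the other B6-scid lacrimal samples, which was 59838 to 60974.

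Scgb1b2 encodes a secretoglobin, a subunit of the androgen-binding proteins of saliva and tears. Its submandibular signals at 9 weeks were 35384, 28698, 32332, 43311 and 61158 in B6-scid and 21626, 37445, 48097, 56379 and 74673 in NOD-scid. At 15 weeks Scgb1b2 read 44520.1, 11653, 10476, 11828 and 18288 in B6-scid and 14754, 12787, 11824, 14725 and 14856 in NOD-scid. NOD-scid sample 1 was again the lowest of its 9-week group and B6-scid sample 1 the highest of its 15-week group. The median 15-week gland held 9.22% of the lacrimal mean of Scgb1b2 in B6-scid, or 14.3% without lacrimal samples 2 and 3, and 10.9% in NOD-scid.

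**Figure D2:**
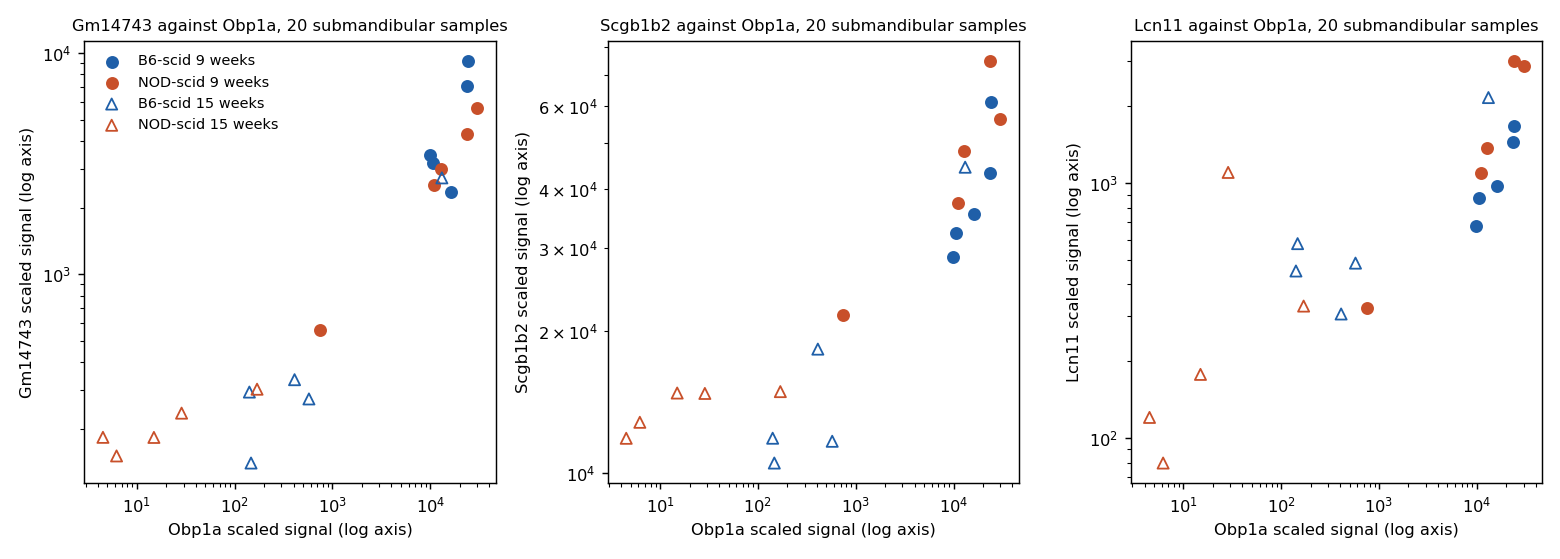
Scaled signals of Gm14743, Scgb1b2 and Lcn11 (y axes, log scale) against Obp1a on array A (x axis, log scale) in the 20 submandibular samples; filled circles are 9 weeks, open triangles 15 weeks, blue B6-scid and orange NOD-scid. One open blue triangle (B6-scid sample 1, 13136 on the x axis) lies among the circles in all 3 panels, and one circle (NOD-scid sample 1, 745) lies apart from the other circles.

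Some other transcripts of secreted proteins also fell between the ages. Over all probe sets tested, 0.445% were called lower at 15 weeks in B6-scid and 0.408% in NOD-scid. Of 12 lacrimal secretory genes tested, 4 were called lower at 15 weeks in B6-scid (Pip, Mucl2, Car6 and Scgb1b27) and the same 4 in NOD-scid, with a median log2 difference of -0.30 and -0.47 over the list, against -0.02 and -0.03 over all probe sets. Unlike Obp1a, these 4 read higher in the 9-week submandibular gland than in the lacrimal gland. The median 9-week gland held 131% (Mucl2) to 672% (Scgb1b27) of the lacrimal mean in B6-scid. In NOD-scid it held 147% (Pip) to 3418% (Scgb1b27), with lacrimal sample 4 kept in the mean. Pip, a secretory protein of tears and saliva, fell by 1.01 ± 0.18 on the log2 scale in B6-scid (adjusted p = 0.00894, limma) and by 1.08 ± 0.18 in NOD-scid (adjusted p = 0.00849). Of 16 submandibular secretory genes, 1 was called lower in B6-scid and 2 in NOD-scid, with medians of -0.24 and -0.17. Of 7 parotid and sublingual genes 0 were called in either strain (limma, 2 and 0 at an unadjusted p under 0.05), with medians of -0.34 and 0.06. Of 12 pancreatic acinar genes, 2 were called lower in B6-scid (the trypsinogen gene Prss2 and the elastase gene Cela1) and 4 in NOD-scid. The summed acinar signal was 5212 to 19625 in B6-scid glands of 9 weeks and 2893 to 3960 at 15 weeks, and 12392 to 207646 and 3762 to 11714 in NOD-scid. B6-scid sample 1 of 15 weeks, high in Obp1a, summed to 3725, inside its own age group. The part of these other cells in the age difference of Obp1a was not tested.

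Over all 14 member probe sets, 11 passed the filter on low signals in the submandibular fit. The 3 of Obp1a and Gm14743 are left out of the counts that follow, since their levels chose the genes, which leaves 8. Of these, 1 was called lower at 15 weeks in B6-scid, Apod on array A, and 0 in NOD-scid, with 0 called higher in either (limma, adjusted p under 0.05 over the whole table; 2 in each strain at an unadjusted p under 0.05). Over all probe sets 0.445% were called lower and 0.778% higher in B6-scid, and 0.408% lower and 0.569% higher in NOD-scid. Of the same 8, 0 were called between strains at 9 weeks and 0 at 15 weeks by limma, with 0 and 0 at an unadjusted p under 0.05, against 1.12% and 0.594% of all probe sets called. The medians of their log2 differences were 0.16 and 0.01, against 0.03 and 0.01 over all probe sets. The strain difference was called as changed between the ages for 0 of the 8 and for 0 of the 32136 probe sets (limma, 0.0% called), with 0 of the 8 and 1605 probe sets at an unadjusted p under 0.05.

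**Figure D3:**
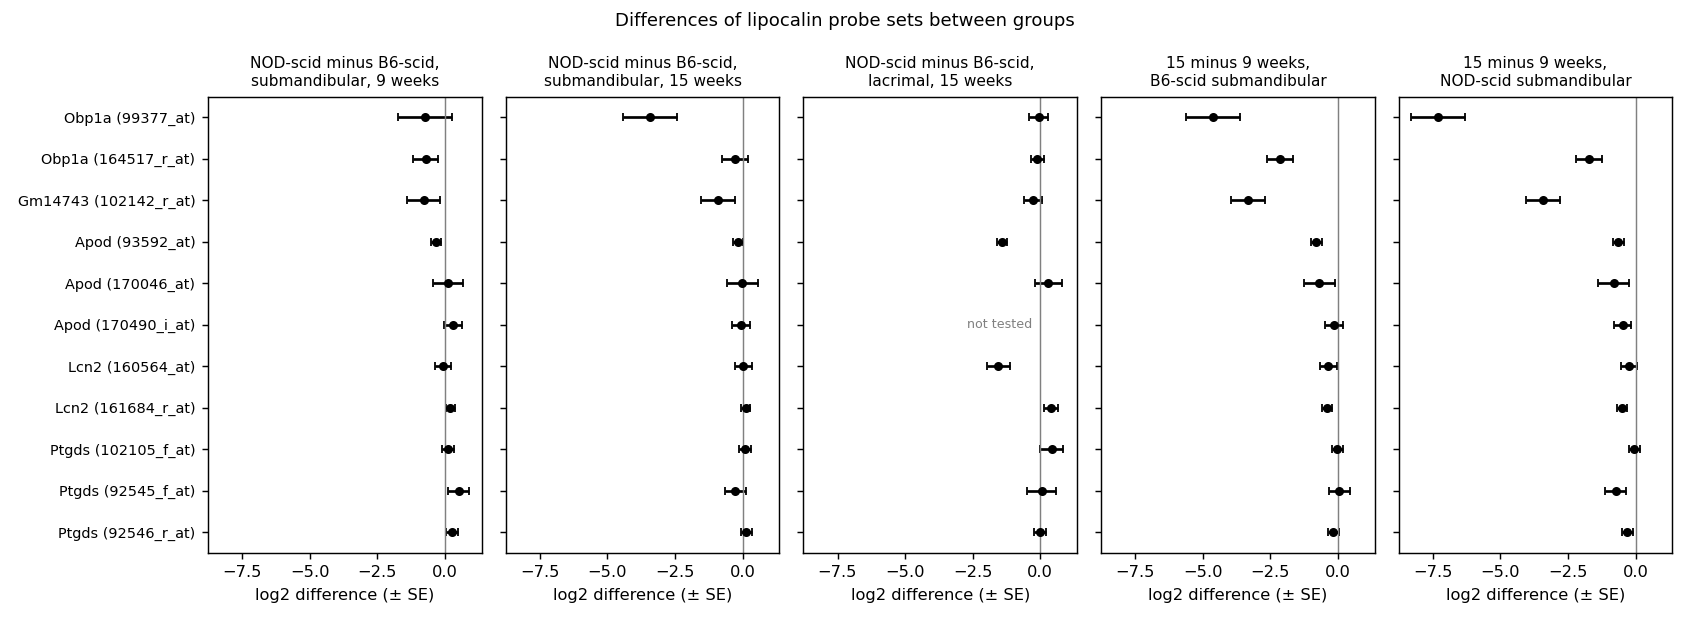
Log2 difference (x axis, with its standard error as the bar) of 11 member probe sets (rows) in 5 comparisons (panels), from limma on log2(signal + 32). Obp1a and Gm14743 lie far below 0 in both age panels, at -7.31 for Obp1a on array A in NOD-scid; in the lacrimal panel Apod on array A lies at -1.41 and the 2 Lcn2 probe sets lie on opposite sides of 0.

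Apod was lower in the lacrimal gland of NOD-scid mice. Its array A probe set read 1079.7, 1043, 1401, 1199 and 859 in B6-scid and 447, 402, 396 and 342 in NOD-scid. Every NOD-scid sample lay below every B6-scid sample. The difference was -1.41 ± 0.18 (log2, SE) with an adjusted p of 0.00642 (limma), and -1.32 with an adjusted p of 0.0256 without B6-scid samples 2 and 3. Over its alternatives the adjusted p ran from 0.00121 to 0.0900, and the call was lost in 1 of 18. In the lacrimal gland 7 member probe sets other than those of Obp1a and Gm14743 were tested and this was the only one called lower, with 0 called higher, against 0.668% of all probe sets lower and 0.524% higher (limma, 2 of the 7 at an unadjusted p under 0.05).

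In the submandibular gland the strain difference of Apod was -0.33 ± 0.19 at 9 weeks (adjusted p = 0.555, limma) and -0.16 ± 0.19 at 15 weeks (adjusted p = 1.00). The lacrimal minus the 15-week submandibular strain difference was -1.24 ± 0.28, which did not pass the adjusted test (p = 0.0704, limma; 0.328% of all probe sets were called). Fibroblasts express Apod. In the lacrimal gland the summed signal of 11 fibroblast genes was 13948 to 16691 in B6-scid and 10391 to 12558 in NOD-scid, without overlap. Of these 11 genes 1 was called, Pdgfra, lower on 1 of its probe sets (-1.55 ± 0.27, adjusted p = 0.0257, limma). At an unadjusted p under 0.05, in either direction, there were 7 of the 11 (limma). The median difference was -0.16 over the list. No gene of the list was under 100 in every sample of a group. The part of fibroblasts in the Apod difference was not tested.

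With age, Apod in the submandibular gland went from 2250.1, 1814, 2140.3, 1788 and 2240.2 to 1323, 1636, 1226, 1045 and 739 in B6-scid. In NOD-scid it went from 1522, 1359.8, 1655, 2039 and 1569 to 1314, 1074, 1025, 764 and 1034. The ages did not overlap in either strain. The difference was -0.80 ± 0.19 in B6-scid (adjusted p = 0.0446, limma) and -0.64 ± 0.19 in NOD-scid (adjusted p = 0.124), and these 2 differences were not shown to differ (0.16 ± 0.27). The B6-scid call was lost in 17 of 29 alternatives, 13 of which left out 1 sample, with adjusted p from 0.0243 to 0.112 and a difference of -0.92 to -0.64. On this probe set pancreas read 39.9 to 214. The summed signal of the fibroblast list was 18243 to 24530 at 9 weeks and 19202 to 23241 at 15 weeks in B6-scid. In NOD-scid it was 15777 to 21432 and 19873 to 22800. Of the 11 genes of that list 0 were called in either strain (limma, 4 and 2 at an unadjusted p under 0.05), with median log2 differences of 0.07 and 0.17. The part of fibroblasts in the age difference of Apod was not tested.

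The array C probe sets of Apod passed no test. One of them ranged from 39.9 to 746 over the 39 samples, with a lacrimal difference of 0.30 ± 0.51 (adjusted p = 0.846, limma). Its age differences were close in size to those on array A but had wider errors, at -0.69 ± 0.57 in B6-scid (adjusted p = 0.632) and -0.82 ± 0.57 in NOD-scid (adjusted p = 0.543, limma). In pancreas this probe set read 158 ± 72.5 in B6-scid and 332 ± 111 in NOD-scid (SD, n = 5 each), the latter above its means in 15-week submandibular and in lacrimal gland, with a strain difference of 0.96 ± 0.35 (adjusted p = 0.342, limma). The other, whose probes were incomplete, reached 100 in 5 samples and was not tested in the lacrimal gland.

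**Figure D4:**
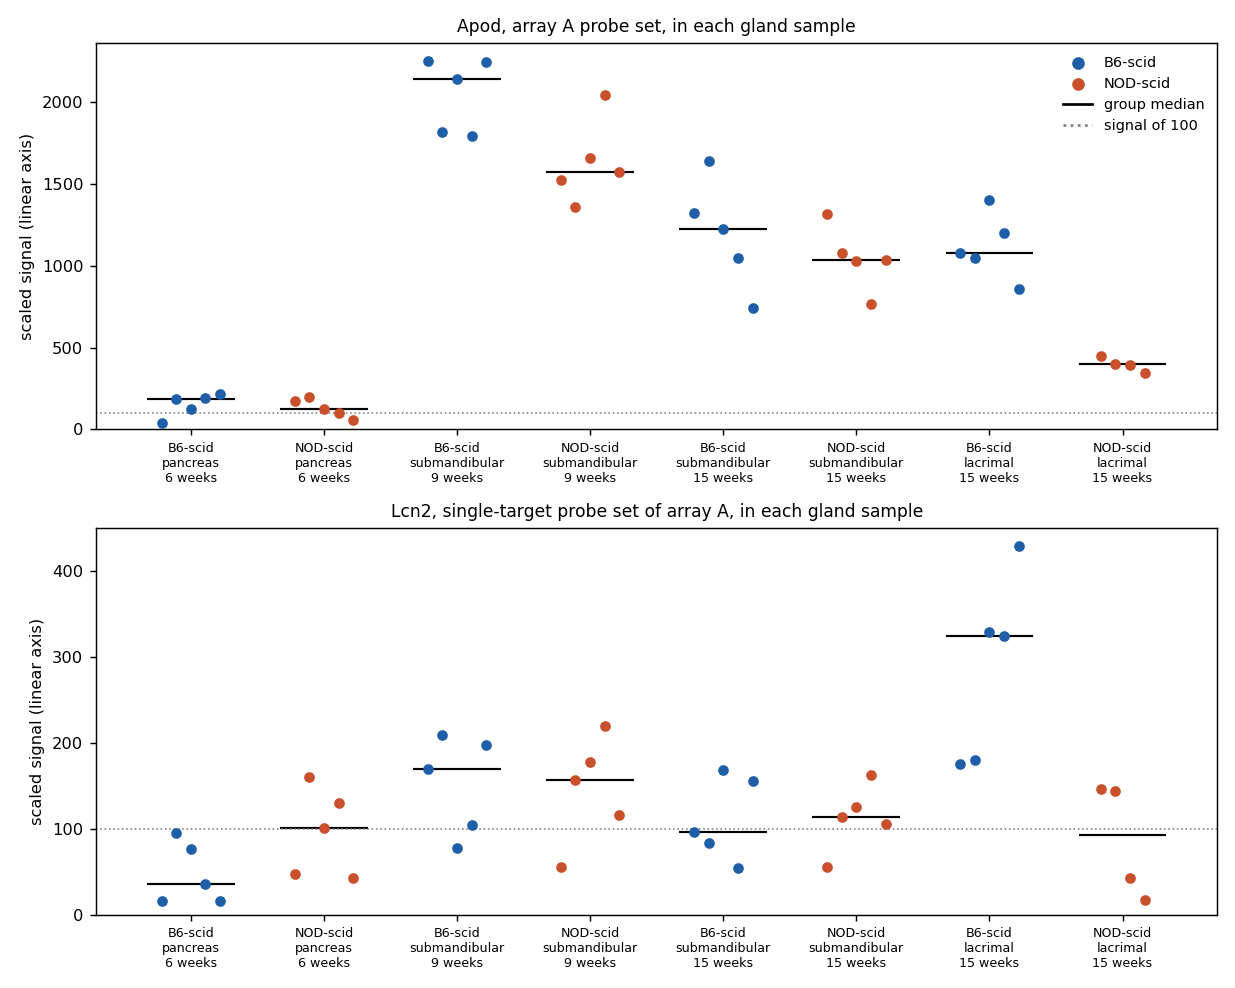
Scaled signal (y axis, linear) of the array A probe set of Apod (upper panel) and of the Lcn2 probe set that met all selection rules (lower panel) in each gland sample of the 8 groups (x axis); black lines are group medians, the dotted line is a signal of 100. The 4 NOD-scid lacrimal samples lie below the 5 B6-scid ones in both panels, at 342 to 447 for Apod and 16.7 to 146 for Lcn2.

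Lcn2 (lipocalin 2) was read by probe sets that disagreed. On the one that met all of the maker's selection rules the B6-scid lacrimal samples read 175, 179.8, 329, 325 and 429.7 and the NOD-scid samples 146, 144, 42.3 and 16.7, without overlap. The difference of -1.56 ± 0.42 did not pass the adjusted test (p = 0.134, limma), and over its alternatives the adjusted p ran from 0.0195 to 0.353. The other, which met fewer of them, was at 439 to 1611 in all 39 samples and differed by 0.40 ± 0.24 in the opposite direction (adjusted p = 0.507). In pancreas and submandibular gland the first probe set reached 219 at most.

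Neutrophils carry Lcn2, and the summed signal of 12 neutrophil genes was 9015 to 18351 in B6-scid and 17375 to 18240 in NOD-scid lacrimal gland. Most of this was Ltf, with a mean of 12164 in B6-scid and 13377 in NOD-scid lacrimal gland. Ltf is also on the list of lacrimal secretory genes, so this sum does not mark neutrophils alone. The strains overlapped in this sum, and of 9 neutrophil genes tested 0 were called (limma, 1 at an unadjusted p under 0.05). The part of neutrophils in the Lcn2 readings was not tested. Of 20 acute-phase and NF-kB target genes, many of which respond to the same cytokines as Lcn2, 17 had a probe set and 11 were tested in the lacrimal gland. One was called, Cxcl1, a chemokine that attracts neutrophils, which was lower in NOD-scid on both its probe sets. Of all probe sets 0.668% were called lower in lacrimal gland. On one of its probe sets Cxcl1 read 596 ± 260 (SD, n = 5) in B6-scid and 29.1 ± 15.6 (n = 4) in NOD-scid. The difference was -3.30 ± 0.32 (adjusted p = 0.00114, limma), and this call was lost in 1 of 17 alternatives. These did not include the fit without B6-scid samples 2 and 3, in which this probe set was not tested. The call on the other (-1.97 ± 0.37, adjusted p = 0.0380) was lost in 11 of 17 alternatives, among them the one without B6-scid samples 2 and 3.

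In the submandibular gland at 9 weeks 12 genes of that list were tested, and 1.12% of all probe sets were called. Cxcl1 was again the one gene of the list called. It differed there by -2.22 ± 0.48 (adjusted p = 0.0228) and -2.63 ± 0.53 (adjusted p = 0.0136, limma), with 433 ± 261 in B6-scid and 65.2 ± 45.9 in NOD-scid on the first (SD, n = 5). The first of these calls was lost in 4 alternatives that each left out 1 sample, and the second in none. At that age the Lcn2 differences were -0.07 ± 0.31 and 0.20 ± 0.17 on its 2 probe sets (adjusted p = 0.959 and 0.728, limma).

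Ptgds showed no difference that passed a test. One of its 3 probe sets, of a kind shared within a gene family, read 2146 to 3695 in pancreas, 1457 to 3164 in submandibular and 486 to 2614 in lacrimal gland. The lowest of these was B6-scid lacrimal sample 3. The lacrimal difference was 0.42 ± 0.43 (adjusted p = 0.715, limma). The other 2 probe sets lay between 26.4 and 279.7, and reached 100 in 22 and 13 of the 39 samples.

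Rbp4 was low outside the pancreas, at 6.86 to 40.0 in all 29 submandibular and lacrimal samples. In pancreas it read 322, 57.8, 70.7, 74.2 and 60.5 in B6-scid and 123, 56.2, 85.2, 331 and 355 in NOD-scid. The strains overlapped and differed by 0.56 ± 0.50 (adjusted p = 0.777, limma). Of the 14 member probe sets 8 were tested in pancreas and 0 were called, with 1 at an unadjusted p under 0.05, against 0.647% of all probe sets called. Rbp4 is known from hepatocytes, and the summed signal of 15 hepatocyte genes was 3640 to 5751 in B6-scid and 5231 to 6740 in NOD-scid pancreas. In lacrimal gland, where Rbp4 was low, the same sum was 4777 to 6118 in B6-scid and 5073 to 6200 in NOD-scid. The part of hepatocytes in the Rbp4 readings was not tested.

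Lcn3 and Lcn4, the vomeronasal proteins, were low throughout. Lcn3 ranged from 21.5 to 122 and reached 100 in 2 of 39 samples, both lacrimal. Lcn4 ranged from 4.74 to 49.7 and reached 100 in 0 of 39 samples. Neither passed the filter in any comparison, so neither was tested.

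The wider lipocalin family was followed through 33 further symbols, of which 12 had a probe set. Lcn11 was a lacrimal transcript like Obp1a, with 117665 to 143829.8 in B6-scid and 189539 to 242952 in NOD-scid lacrimal gland and at most 3000.0 elsewhere. The strains did not overlap, and the difference of 0.76 ± 0.19 did not pass the adjusted test (p = 0.0979, limma). Lcn11 did not set B6-scid lacrimal samples 2 and 3 apart, which read 121617 and 122218. In the submandibular gland its lowest 9-week reading was 324, in NOD-scid sample 1, and its highest 15-week B6-scid reading was 2165, in sample 1, the samples that stood apart in Obp1a.

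Among the major urinary proteins, Mup5 and Mup3 (on 1 of its 2 probe sets) were called lower at 15 weeks in the B6-scid submandibular gland, and Mup3 was called between strains at 9 weeks. Mup5, on a probe set shared within the family, read 123468, 158893, 116838, 82301 and 136446 in B6-scid submandibular gland at 9 weeks and 82002, 51006, 29407, 16043 and 24129.5 at 15 weeks. Every 15-week sample lay below every 9-week sample, with sample 1 the highest at 15 weeks. Mup5 fell by 1.81 ± 0.41 on the log2 scale (adjusted p = 0.0303, limma), a call lost in 8 of 29 alternatives. In NOD-scid it read 96408, 26543, 63884, 86798 and 57089.9 at 9 weeks and 35309.9, 24162, 19412, 30561 and 62349 at 15 weeks, a difference of -0.94 ± 0.41 that did not pass (adjusted p = 0.294, limma).

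Mup3 separated the strains at 9 weeks. On one of its probe sets the B6-scid glands read 30304, 16603, 17491, 21142 and 20536 and the NOD-scid glands 7649.7, 3097, 4876, 9857 and 6316, without overlap. The difference was -1.80 ± 0.41 (adjusted p = 0.0300, limma), and -1.82 ± 0.39 on the other (adjusted p = 0.0228). These calls were lost in 6 and 3 alternatives, each of which left out 1 sample. At 15 weeks the B6-scid glands read 18010.1, 9111, 6144, 3001 and 3373 and overlapped the NOD-scid glands at 2779.5 to 6818. On the first probe set the difference with age in B6-scid was -1.70 ± 0.41 (adjusted p = 0.0418, limma), a call lost in 15 of 29 alternatives. In the lacrimal gland its strains did not overlap, at 18015 to 27017 in B6-scid and 9153 to 14716 in NOD-scid, and the difference of -0.87 ± 0.20 did not pass the adjusted test (p = 0.0741). The probe sets of this family can be read by several Mup transcripts, so the values cannot be given to 1 gene.

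**Figure D5:**
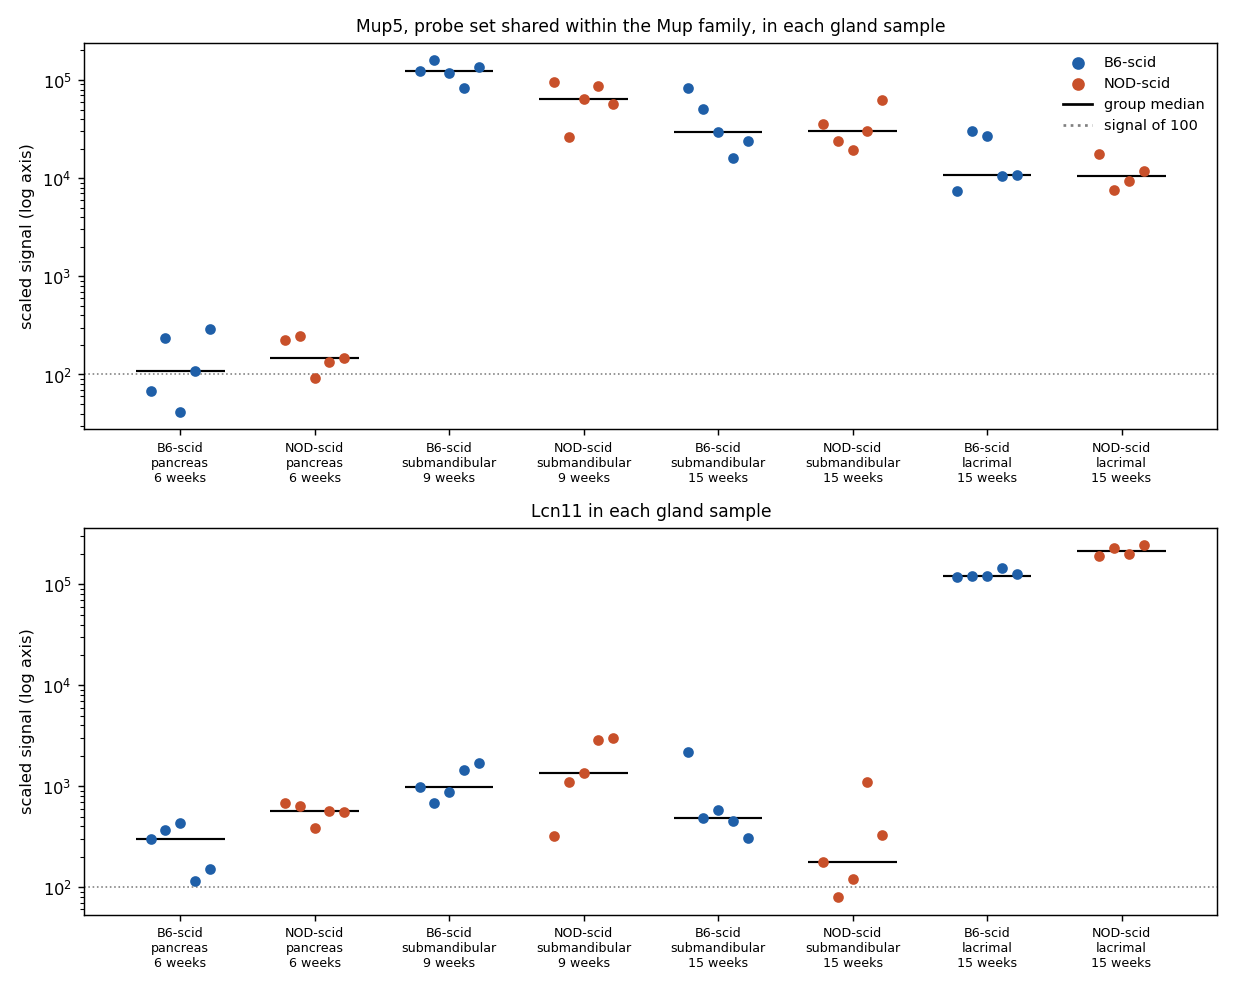
Scaled signal (y axis, log scale) of Mup5 (upper panel) and Lcn11 (lower panel) in each gland sample of the 8 groups (x axis); black lines are group medians and the dotted line is a signal of 100. Mup5 is highest in 9-week submandibular glands, up to 158893 in B6-scid, and Lcn11 lies at or above 117665 in every lacrimal sample and at or below 3000.0 elsewhere.

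Over the list of other lipocalins, 6 genes were tested in the submandibular gland: 1 was called lower and 0 higher in NOD-scid at 9 weeks, 0 either way at 15 weeks, 2 lower with age in B6-scid and 0 in NOD-scid (limma, with 3, 0, 3 and 2 genes at an unadjusted p under 0.05). Of all probe sets 1.12% and 0.594% were called between the strains at these ages. With age 0.445% were called lower in B6-scid and 0.408% in NOD-scid. The median log2 difference over the list was -0.62 between the strains at 9 weeks and -0.08 at 15 weeks, against 0.03 and 0.01 over all probe sets. In pancreas and in lacrimal gland 5 genes were tested and 0 were called (limma, 2 in each at an unadjusted p under 0.05). Of all probe sets 0.647% were called in pancreas, and 0.668% lower and 0.524% higher in lacrimal gland. The acute-phase lipocalin Orm3 ranged from 56.3 to 571, and C8g, a subunit of complement C8, was highest in pancreas with 364 to 750.0 on one of its probe sets. Orm1, Ambp, Lcn5, Pbsn and Obp2a read at most 170.2 in any sample.

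Genes that hand ligands to lipocalins or receive them were followed through 25 symbols (retinoid enzymes and carriers, prostaglandin D2 enzymes and receptors, and the receptors of Lcn2, Apod and Rbp4), of which 20 had a probe set. In the submandibular fit 16 were tested. Of all probe sets 1.12% were called between strains at 9 weeks. With age in B6-scid 0.778% were called higher and 0.445% lower. Crabp2, which carries retinoic acid to its nuclear receptor, was called higher in NOD-scid at 9 weeks with 812 ± 312 (SD, n = 5) against 207 ± 120 (n = 5). The strains overlapped, and the difference of 1.87 ± 0.44 (adjusted p = 0.0372, limma) was lost in 8 of 29 alternatives, among them the one without the samples numbered 1 that stood apart. Rdh10, the first enzyme of retinoic acid synthesis, rose with age in B6-scid from 1820 ± 408 to 3839 ± 352, a difference of 1.09 ± 0.20 (adjusted p = 0.0113, limma) that held in all 29 alternatives.

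Ttr, which binds Rbp4 in blood, fell with age in B6-scid by 0.63 ± 0.14 on the log2 scale (adjusted p = 0.0336, limma), a call lost in 12 of 29 alternatives. In pancreas, where 0.647% of all probe sets were called, 15 of these genes were tested and 1 was called. This was Aldh1a1, a retinal dehydrogenase, which was lower in NOD-scid with 803 ± 102 (SD, n = 5) against 1481 ± 224 (n = 5). The difference was -0.85 ± 0.15 (adjusted p = 0.0352, limma), a call lost in 12 of 18 alternatives. In the lacrimal gland 13 were tested and 0 called, and 0 of 16 were called between strains at 15 weeks or between ages in NOD-scid (limma, 4 genes at an unadjusted p under 0.05 in each of these 3 comparisons). In lacrimal gland 0.668% of all probe sets were called lower and 0.524% higher. The shares were 0.594% between strains at 15 weeks, and 0.408% lower and 0.569% higher with age in NOD-scid.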

How the data were processed

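The deposited values were intensities on a linear scale. Per the submitters' processing notes they came from MAS5, with no version given in the sources used here. Per the labels, biotin-labelled cRNA was made from Trizol RNA of each gland and hybridised to the array designs A, B and C. The deposited intensities had a 2% trimmed mean of 2500.5 to 2502 on every array, and here each was rescaled to 500. Control probe sets were left out (66 per design), and gene symbols came from the platform annotation. In all 29131 probe sets had 1 symbol, 724 several and 6846 none, and no gene was named from several. Detection calls were not used, so a low signal has no flag, and the number of mice limits the precision.

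Log2(signal + 32) was tested with limma 3.58.1 in R 4.3.3 (lmFit and eBayes, with a separate spread estimate for each array design), for probe sets at 100 or more on at least 4 arrays of a fit. P-values were adjusted by Benjamini-Hochberg over the 3 designs, and an adjusted p under 0.05 was called. Pancreas and lacrimal gland had a fit each, and the 20 submandibular samples shared 1. An SE is that of the fit. The labels number a mouse for each sample and name no batch. Same-numbered samples of different groups correlated from -0.146 to 0.284 after group means were subtracted, not all above 0.1 in any comparison, so numbers were not used as pairs. Between strains in the 9-week submandibular gland they ran from 0.040 to 0.284, against a mean of -0.032 for other numbers. Whether equal numbers share a mouse or a batch cannot be told from these values. None of the 76 pairs of samples within a group was identical.

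Members and gene lists were chosen with earlier results of these data known. Named beside the members were the 5 genes most correlated with Obp1a over all samples and within submandibular groups, and called members of the lists of other lipocalins, partners and acute-phase genes. The acinar, secretory, fibroblast, hepatocyte and neutrophil lists served to describe other cells. Promoter windows came from RefSeq (GRCm38.p6) and were aligned end to end.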

Additional observations from a re-analysis of the deposited data

Results flagged for a closer look

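Within each group of 4 or 5 samples, 82 sets of member signals were searched for a sample far from the rest, and 7 were found. Chance gives about 1 in 20. Obp1a on array A read 745 in NOD-scid submandibular sample 1 of 9 weeks, against 11008 to 30157 in the others, and 13136 in B6-scid submandibular sample 1 of 15 weeks, against 141 to 574. The second of these samples also stood apart in the array B probe set of Obp1a (503 against 38.4 to 94.3) and in Gm14743 (2725 against 140.1 to 334). The first held pancreatic enzyme transcripts, with Cela1 at 19646 against 1563 to 2227 in the other NOD-scid glands of its age. The second did not, with Cela1 at 119 against 91.3 to 110.1 in its group.

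Lcn2, on the probe set with fewer selection rules met, read 1463 in B6-scid submandibular sample 5 of 9 weeks, against 943 to 997. Rbp4 read 322 in B6-scid pancreas sample 1, against 57.8 to 74.2. Ptgds read 2146 in NOD-scid pancreas sample 2, against 3147 to 3579.8.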

How the results depend on the processing

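The alternatives were other pseudocounts, filters, scalings, spread estimates, 1 fit of all samples, the replicate number as a block, and leaving out samples. No result that was tested changed sign. Of those only described, 3 did: the strain difference ran from -1.14 to 0.18 for Obp1a on array A at 9 weeks in submandibular gland, and from -0.21 to 0.46 for it and -0.44 to 0.25 for Gm14743 in lacrimal gland. Member calls on Obp1a and Gm14743 are left out here, since their levels chose the genes. With the replicate block the calls over all probe sets were 60 against 186 in pancreas and 35 against 330 in lacrimal gland, the lacrimal member call (Apod) was lost, with 0 against 1, both lacrimal Cxcl1 calls were lost (adjusted p = 0.0683 and 0.208, limma), and 1 member in place of 0 was called in the comparison of the strain difference between glands. The labels do not say whether equal numbers share a batch or, at 15 weeks, a mouse. Whether a call lost under the block is a weaker effect was therefore not tested. With 1 fit of all samples the calls were 313 in pancreas, 678 in lacrimal gland, 966 against 393 for age in B6-scid and 677 against 314 for age in NOD-scid. The members called in lacrimal gland were then 2, Apod and Lcn2. The larger pseudocount gave 594 calls for age in B6-scid. Without B6-scid lacrimal samples 2 and 3 there were 145 calls in lacrimal gland. The causes were not tested.

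Leaving out 1 sample in turn gave 112 to 161 calls in pancreas, 148 to 258 in lacrimal gland, 122 to 428 for age in B6-scid, 111 to 350 for age in NOD-scid and 0 to 1 for the strain difference between ages. Apod on array A lost its age call in B6-scid in 13 of 20 such fits and was called for the strain difference between glands in 1 of 19. Signals under 100 and groups of 4 or 5 mice limit what low genes can show. The samples left out as standing apart, and the single spread estimate, were alternatives chosen after the data were seen.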
